A study of Mus musculus with 16 samples.

Results

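Meningeal fibroblast and retinoid genes are described here as 10 genes, picked by name from the 54532 genes of the count tables: Ptgds, Aldh1a2, Crabp2, Lrp2, Slc6a13, Foxc1, Foxc2, Foxd1, Osr1 and Alx4. The 10 genes were picked with earlier results of these data known, so their share of calls is a description and not a test. All 10 were found and all 10 passed the filter on low counts, as did 14783 genes in all. RNA came from primary hippocampal cultures of newborn mice, prepared from pooled hippocampi of pups of postnatal days 1 to 2 by the labels. The groups were KOLi, KOVeh, WTLi and WTVeh with 4 libraries each, where KO is Shank3∆11(−/−), a whole-body deletion that removes the longer isoforms of the postsynaptic scaffold SHANK3, and WT is wild type. Li stands for 0.1 mmol/l lithium and Veh for H2O, each given from DIV 9 for 5 days, with RNA taken at DIV 14 by the methods, while the labels number the days in vitro from 14 to 29, a different one for each library. The methods of the study say that the meninges were taken off during dissection, and nothing was sorted, so that each value averages over a whole mixed culture. SE below is the standard error of a fitted log2 fold change. In such bulk RNA, fewer cells of a type and less RNA per cell cannot be told apart.

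Total counts ran from 16123067 to 35188300 per library (median 22041966). Libraries carry numbers 1 to 4 in their titles, called replicates here and taken as the experiments of the study, which the labels do not state. Replicate 4 alone belongs to sequencing batch 2 and the others to batch 1, so that experiment 4 and its sequencing batch cannot be told apart. Shank3 held 85.3, 159, 86.3 and 96.3 CPM in KOLi and 82.0, 162, 88.5 and 97.9 CPM in KOVeh, against 221, 188, 214 and 261 CPM in WTLi and 204, 169, 236 and 267 CPM in WTVeh, in the order of the replicates. CPM are counts scaled to a common library size. The libraries labelled KO replicate 2 therefore stood near WT replicate 2, and the main counts are given with and without replicate 2. Neuron markers (12 of 12 tested) summed to 4951 to 6880 CPM in KOLi and 5241 to 7169 CPM in KOVeh, against 4167 to 5869 CPM in WTLi and 4613 to 6359 CPM in WTVeh. A list of 45 meningeal fibroblast genes other than transcription factors (40 tested) summed to 2261 to 3471 CPM in KOLi and 2209 to 3198 CPM in KOVeh, against 3329 to 5809 CPM in WTLi and 3389 to 4859 CPM in WTVeh. Slc47a1, a transporter of the arachnoid barrier, was at 0 in 8 of 16 libraries, and the adhesion molecule gene Cdh1 at 0 in 3.

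The meninges are membranes of fibroblasts and vessels that wrap the brain. In the mouse embryo, meningeal fibroblasts are a source of retinoic acid, a signal made from vitamin A. Retinol is brought into cells by carriers and receptors, oxidised to retinaldehyde and then to retinoic acid, which acts through nuclear receptors. The forkhead factor FOXC1 is required for normal formation of the meninges in mice.

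RefSeq promoters (GRCm38.p6) were matched for 6 of the 10 genes: Aldh1a2, Foxc1, Foxd1, Lrp2, Ptgds and Slc6a13. Each window holds 250 bases before the start and 50 after it. The windows of the pair with the largest fold changes between genotypes, Ptgds and Lrp2, and of Slc6a13, which had the smallest, are shown 5′ to 3′, with each CpG in capitals. They are chr2:25469700-25469999 on the minus strand for Ptgds, chr2:69585980-69586279 on the minus strand for Lrp2 and chr6:121300038-121300337 on the plus strand for Slc6a13. The RefSeq start of Ptgds lay 297 bases from the deposited gene start, so that its window lies inside the deposited gene. The distance was 36 bases for Lrp2 and 61 for Slc6a13.
Ptgds: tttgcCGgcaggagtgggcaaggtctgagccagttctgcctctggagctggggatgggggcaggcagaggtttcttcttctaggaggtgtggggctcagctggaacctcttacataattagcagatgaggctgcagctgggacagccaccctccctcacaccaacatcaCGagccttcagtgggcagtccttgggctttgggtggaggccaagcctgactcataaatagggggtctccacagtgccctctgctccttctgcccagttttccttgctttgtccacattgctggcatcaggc
Lrp2: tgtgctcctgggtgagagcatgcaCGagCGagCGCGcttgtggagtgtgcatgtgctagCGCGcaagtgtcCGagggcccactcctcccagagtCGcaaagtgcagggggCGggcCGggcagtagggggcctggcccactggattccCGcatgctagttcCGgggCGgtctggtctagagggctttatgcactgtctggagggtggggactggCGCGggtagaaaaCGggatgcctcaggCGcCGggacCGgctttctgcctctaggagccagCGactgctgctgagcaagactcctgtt
Slc6a13: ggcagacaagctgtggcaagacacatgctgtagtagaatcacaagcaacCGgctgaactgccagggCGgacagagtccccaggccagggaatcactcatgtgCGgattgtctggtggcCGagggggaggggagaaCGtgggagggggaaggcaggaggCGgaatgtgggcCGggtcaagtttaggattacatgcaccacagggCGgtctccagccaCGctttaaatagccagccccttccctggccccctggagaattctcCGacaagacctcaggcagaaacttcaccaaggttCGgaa
The Ptgds window held 2 CpG, the Lrp2 window 20 and the Slc6a13 window 11, against a median of 7 over 32851 promoters. Foxd1 had 15, Foxc1 32 and Aldh1a2 50 CpG, a number that 99.3% of promoters do not exceed. Both strands were searched for motifs. The retinoid receptor motif AGGTCA (16.3% of all promoters), the forkhead core TGTTTA (13.4%) and TATAAA (13.6%) were in 0 of the 6 windows. GGAATG (14.7%) was in 1, that of Slc6a13. CANNTG (72.3%) was in 5, all but that of Foxc1. The motifs were searched one by one, and a match is a description only.

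Ptgds (ENSMUSG00000015090, chromosome 2, 25466709 to 25470046, GRCm38), Slc6a13 and Aldh1a2 were the most abundant of the 10 genes per length in WTVeh, at 103 ± 65.2, 34.6 ± 12.8 and 24.1 ± 6.80 CPM per kb (SD, n = 4). Ptgds exceeded Slc6a13 and Slc6a13 exceeded Aldh1a2 in each of the 4 libraries, although the ranges over libraries overlapped. Osr1 (9.86 ± 0.385) and Foxc1 (9.14 ± 0.984) did not separate from each other. Foxd1 (4.17 ± 0.822) was below Foxc1 and above Alx4 (2.48 ± 0.202) without overlap. Alx4, Crabp2 (2.23 ± 1.63), Lrp2 (1.93 ± 1.77) and Foxc2 (1.93 ± 0.185) had overlapping ranges from each to the next. Crabp2 rested on few reads, 6 to 117 per library, and Foxc2 on 35 to 242.

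Between KOVeh and WTVeh, all 10 fitted log2 fold changes were below 0, with a median of -0.78 against -0.01 over all 14783 genes. Ptgds, Lrp2, Foxc2 and Osr1 were called lower, which is 4 of 10, and 0 of 10 were called higher. Of all genes tested, 3.42% were called lower and 2.08% higher. Since the 10 were picked with earlier results of these data known, setting them against all genes tests nothing. Scaling by library size alone turned the 506 lower and 307 higher genes into 603 and 205, and left the 4 of 10 as they were. A call needs a Benjamini-Hochberg adjusted p under 0.01 in edgeR's quasi-likelihood test, fitted to all libraries with group and replicate as terms, and a fold above 1.2. With 7 of 10 at an adjusted p under 0.05, only Alx4, Foxc1 and Slc6a13 stayed above that value. At that threshold, with no fold minimum, 11.5% of all genes were lower and 7.96% higher. DESeq2 called 7 of 10 lower, against 7.54% of all genes lower and 5.25% higher. The count rested on the block by replicate: without it, 0 of 10 were called, and also 0 of the 14783 genes. It was 5 of 10 in replicates 1, 3 and 4 only, with Aldh1a2 and Foxc1 in and Foxc2 out, against 7.53% of all genes lower and 3.55% higher.

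The count also moved with single libraries. It was 0 without KOVeh replicate 3, KOVeh replicate 4 or WTVeh replicate 1, it was 1 without KOVeh replicate 1 or WTVeh replicate 3, and it was 2 without WTVeh replicate 4. Lower and higher calls over all genes were 33 and 38, 32 and 41, and 24 and 23 in the fits with 0. They were 113 and 127, and 177 and 222 in the fits with 1, and 140 and 168 in that with 2. The count of the 10 stayed 4 without KOVeh replicate 2 or WTVeh replicate 2, with 442 and 229, and 881 and 462 over all genes. Sequencing batch 1 alone gave 0, with 6 lower and 9 higher over all genes. All 10 fold changes stayed below 0 in each of these fits.

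**Figure D1:**
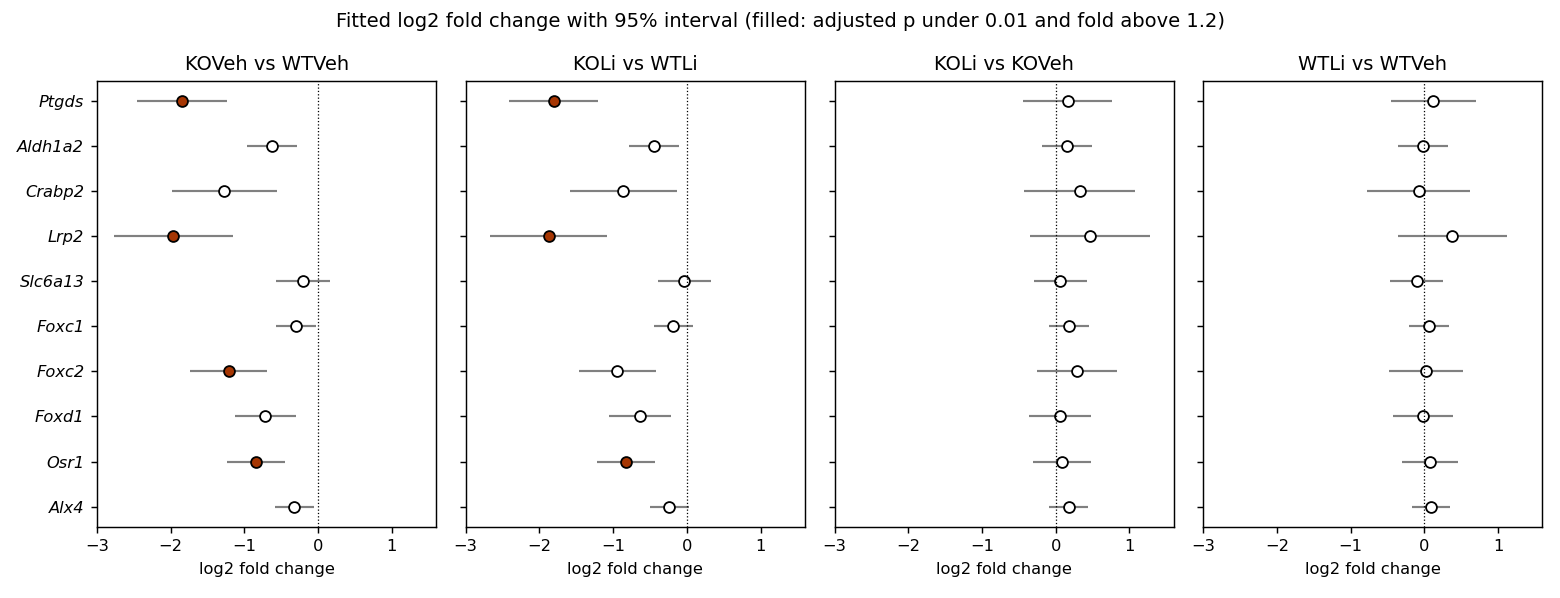
Fitted log2 fold change (horizontal axis) of the 10 genes (vertical axis) in 4 comparisons, with 95% intervals; filled points passed the threshold. In KOVeh against WTVeh 4 points are filled and all lie below 0, in KOLi against WTLi 3, and every interval of the Li comparisons spans 0.

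Of the genes that handle retinoids, Lrp2 had the largest fold change. Lrp2 (ENSMUSG00000027070, chromosome 2, 69424340 to 69586065) encodes megalin, an endocytic receptor that in kidney takes up the retinol carrier. It held 3.09, 10.4, 1.42 and 23.6 CPM in KOVeh, against 13.9, 16.4, 22.04 and 76.3 CPM in WTVeh. Replicate 4 was the highest library of both groups and the groups overlapped, but KOVeh was below WTVeh in each pair of a replicate. The fitted log2 difference was -1.97 (SE 0.37, adjusted p = 0.00536).

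Aldh1a2 (ENSMUSG00000013584, chromosome 9, 71215789 to 71296243) encodes the retinaldehyde dehydrogenase that makes retinoic acid in embryonic mesenchyme and meninges. It held 32.3, 46.0, 29.8 and 30.3 CPM in KOVeh, against 74.3, 54.1, 52.9 and 36.7 CPM in WTVeh. KOVeh was the lower library in 4 of 4 pairs, and the groups overlapped through KOVeh replicate 2 and WTVeh replicate 4. The fitted log2 difference was -0.63 (SE 0.16, adjusted p = 0.0168), short of the threshold. In replicates 1, 3 and 4 only it was -0.76 (adjusted p = 0.00941).

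Crabp2 (ENSMUSG00000004885, chromosome 3, 87948666 to 87953376) encodes a protein that carries retinoic acid to its nuclear receptors. It ranged from 0.208 to 2.74 CPM in KOVeh and from 0.890 to 5.43 CPM in WTVeh, with overlap. KOVeh was below WTVeh in 4 of 4 pairs, and the fitted log2 difference of -1.27 (SE 0.33, adjusted p = 0.0198) did not pass.

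Ptgds encodes lipocalin-type prostaglandin D synthase, which leptomeningeal cells, choroid plexus and oligodendrocytes make in the brain and which also binds retinoids. It held 52.1, 116, 21.2 and 16.4 CPM in KOVeh, against 293, 226, 92.8 and 67.6 CPM in WTVeh. Replicates 3 and 4 were low in both genotypes. The groups overlapped only through KOVeh replicate 2, which lay above WTVeh replicates 3 and 4. Within a replicate, KOVeh was between 0.178 and 0.513 of WTVeh. The fitted log2 difference was -1.85 (SE 0.28, adjusted p = 0.00291). Ptgds kept its call in 5 of the 8 fits that left out a library of these groups, Foxc2 in 3, Osr1 in 2 and Lrp2 in 2.

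Slc6a13 (ENSMUSG00000030108, chromosome 6, 121300227 to 121337733) encodes GAT2, a transporter of GABA and taurine that is enriched in the meninges. It held 98.0, 123, 94.995 and 38.3 CPM in KOVeh, against 148, 101, 95.2 and 57.2 CPM in WTVeh. Replicate 2 was higher in KOVeh and the other replicates higher in WTVeh, replicate 3 by a ratio of 0.998 only. The log2 fold change of -0.21 (95% interval -0.57 to 0.15, adjusted p = 0.416) did not pass, and the fitted values of Foxc1 and Alx4 lie inside that interval.

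**Figure D2:**
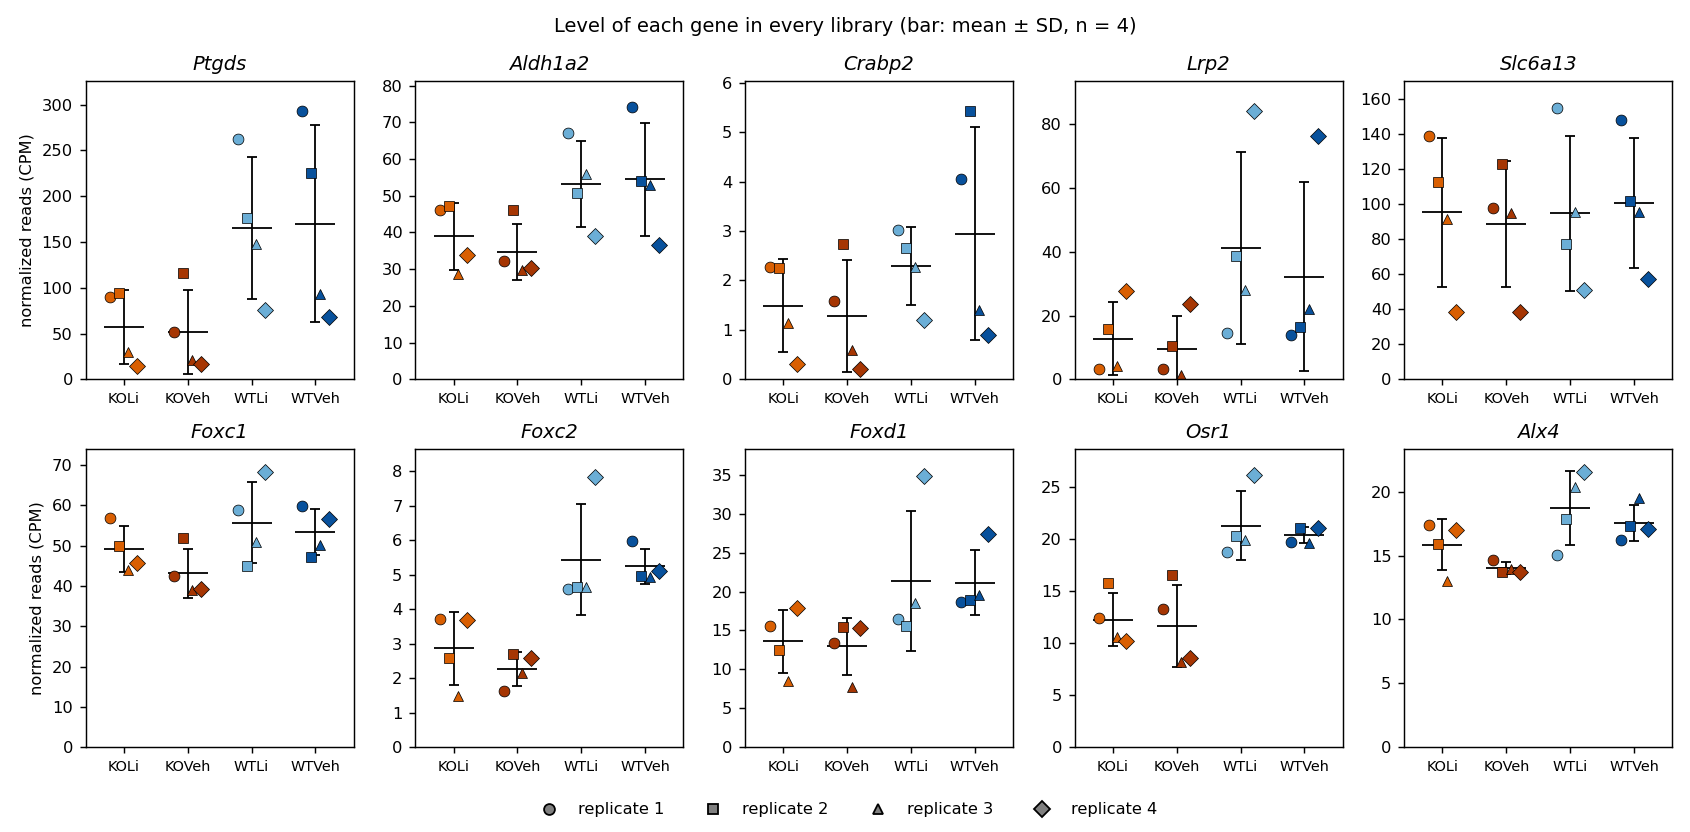
Normalized reads (CPM, vertical axis, from 0) of each gene in every library of KOLi, KOVeh, WTLi and WTVeh, with symbols for replicates and bars for mean ± SD (n = 4). Foxc2 and Osr1 separate by genotype, Ptgds and Lrp2 spread widely over replicates, and Slc6a13 overlaps throughout.

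The transcription factors of mesenchyme fell into those with and without a call. Foxc2 (ENSMUSG00000046714, chromosome 8, 121116171 to 121118895), a forkhead factor of mesenchyme and lymphatic vessels, held 1.64, 2.70, 2.15 and 2.60 CPM in KOVeh, against 5.99, 4.97, 4.92 and 5.11 CPM in WTVeh. The groups did not overlap (exact permutation test, two-sided, p = 0.0286, which no comparison of 4 libraries with 4 can go below, among 40 such tests). The fitted log2 difference was -1.21 (SE 0.24, adjusted p = 0.00643). It narrowly missed the threshold in replicates 1, 3 and 4 only, at -1.33 (adjusted p = 0.0101).

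Osr1 (ENSMUSG00000048387, chromosome 12, 9570116 to 9581500), a zinc finger factor of embryonic mesenchyme, held 13.3, 16.5, 8.23 and 8.59 CPM in KOVeh, against 19.7, 21.1, 19.6 and 21.03 CPM in WTVeh. WTVeh libraries lay close together and all above KOVeh (exact permutation p = 0.0286). The fitted log2 difference was -0.84 (SE 0.18, adjusted p = 0.00846).

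Foxd1, a forkhead factor of kidney stroma and retina, did not overlap either, with 7.69 to 15.5 CPM in KOVeh and 18.7 to 27.3 CPM in WTVeh (exact permutation p = 0.0286). Its fitted log2 difference of -0.72 (SE 0.19, adjusted p = 0.0226) did not pass. Alx4, a homeobox factor of craniofacial mesenchyme, held 13.7 to 14.7 CPM in KOVeh and 16.2 to 19.5 CPM in WTVeh, without overlap, and had -0.32 (SE 0.12, adjusted p = 0.0768). Alx4 overlaps Ext2 on the opposite strand, which had 1088 to 3211 reads against at least 276 for Alx4. The sources used here do not give the strand setting. Reads from any stretch that both genes share can therefore not be assigned with certainty. Foxc1 held 38.9 to 51.9 CPM in KOVeh and 47.1 to 59.7 CPM in WTVeh, with overlap, and had -0.30 (SE 0.12, adjusted p = 0.104). In replicates 1, 3 and 4 only, Foxc1 had -0.45 (adjusted p = 0.00823). Of the 10 genes, 4 (Foxc2, Osr1, Foxd1 and Alx4) had all KOVeh libraries below all WTVeh libraries, as 2.86% of all genes tested did, and 0 had all KOVeh libraries above, against 2.45%.

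**Figure D3:**
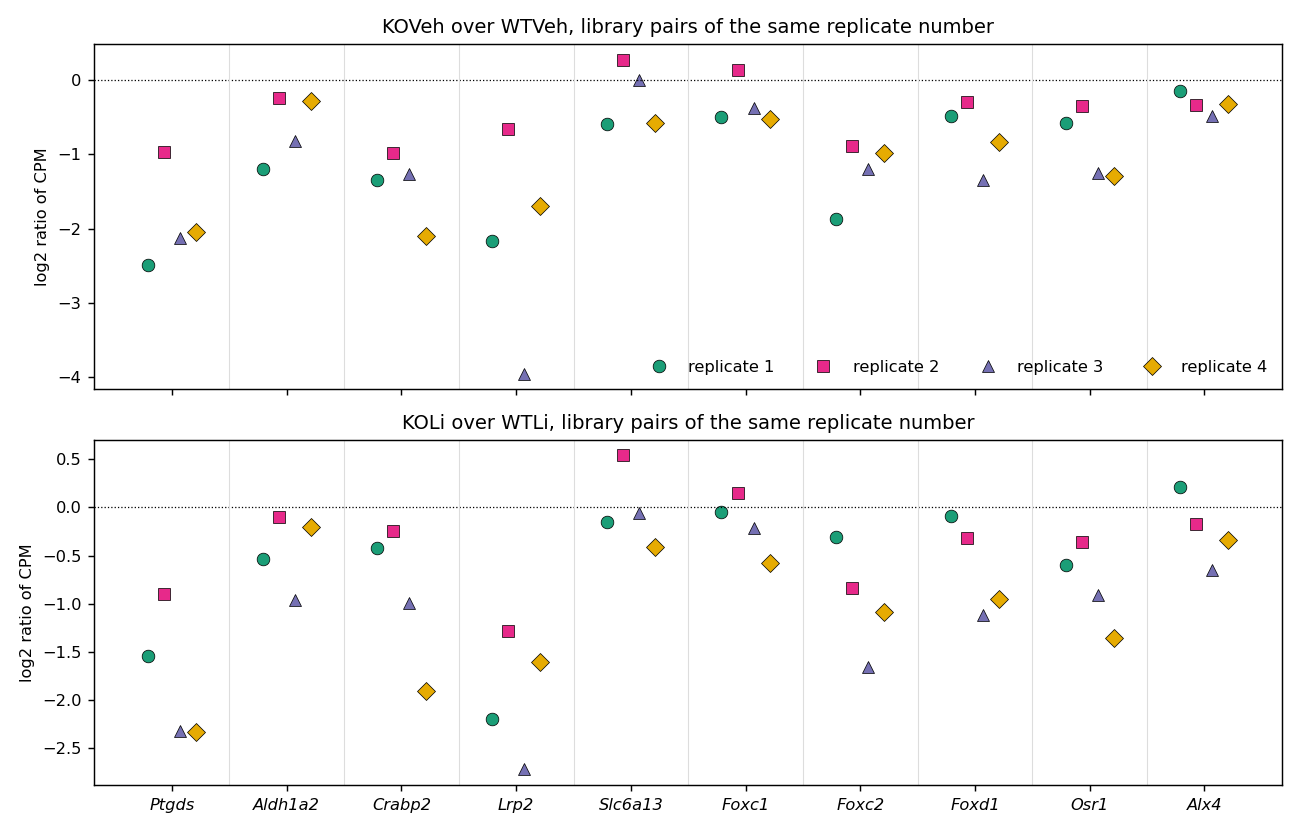
Log2 ratio of CPM within a replicate (vertical axis), KOVeh over WTVeh above and KOLi over WTLi below, for each gene, with symbols for the 4 replicates. Replicate 2 is the pair nearest to 0 for most genes, with a median ratio of 0.787 in Veh and 0.823 in Li.

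Under Li, all 10 fitted values were again below 0. Between KOLi and WTLi, 3 of 10 genes were called lower and 0 higher, against 3.6% of all genes called lower and 2.76% higher (532 and 408 genes, or 645 and 255 with library size alone), with a median of -0.73 over the 10 genes and -0.0044 over all genes. Ptgds held 89.9, 94.4, 29.5 and 14.96 CPM in KOLi, against 262, 176, 148 and 75.2 CPM in WTLi, at a fitted log2 difference of -1.81 (SE 0.28, adjusted p = 0.00238). The groups overlapped through the low WTLi replicate 4. Lrp2 held 3.14, 15.9, 4.26 and 27.6 CPM in KOLi, against 14.4, 38.5, 28.1 and 84.0 CPM in WTLi, at -1.88 (SE 0.37, adjusted p = 0.00567). Again each pair was lower in KOLi, and the groups overlapped. Osr1 held 12.4, 15.8, 10.6 and 10.2 CPM in KOLi, against 18.7, 20.3, 19.9 and 26.1 CPM in WTLi, at -0.83 (SE 0.18, adjusted p = 0.00897). Osr1 did not overlap between these groups.

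Foxc2, called in Veh, held 3.71, 2.59, 1.48 and 3.70 CPM in KOLi, against 4.59, 4.65, 4.65 and 7.84 CPM in WTLi. These groups did not overlap, and its log2 fold change of -0.94 (adjusted p = 0.0176) did not pass. Whether the genotype difference of Foxc2 itself differed between Li and Veh is the interaction, 0.27 (95% interval -0.46 to 1.005), which did not pass. Foxc2 and Osr1 were thus 2 of 10 genes without overlap, against 2.5% of all genes with KOLi below, and 0 had KOLi above throughout, against 3.33%. The others had -0.64 (Foxd1, adjusted p = 0.0337), -0.45 (Aldh1a2, 0.0560), -0.87 (Crabp2, 0.0812), -0.24 (Alx4, 0.171), -0.18 (Foxc1, 0.311) and -0.03 (Slc6a13, 0.904) as log2 fold changes. Without the block by replicate the count was 0 of 10, and 0 over all genes. In replicates 1, 3 and 4 only it was 3 (7.51% of all genes lower, 4.31% higher). In sequencing batch 1 alone it was 0 (3 of all genes lower, 4 higher). At an adjusted p under 0.05 with no fold minimum it was 5, against 12.6% of all genes lower and 9.21% higher, and DESeq2 called 4, against 8.11% lower and 5.74% higher. It was 0 without KOLi replicate 4 or WTLi replicate 4, 1 without KOLi replicate 1, KOLi replicate 3, WTLi replicate 1 or WTLi replicate 3, and 2 without KOLi replicate 2 or WTLi replicate 2. Over all genes, lower and higher calls were 74 and 97, and 39 and 45 in the fits with 0. They were 62 and 65, 164 and 156, 194 and 156, and 89 and 130 in those with 1. The fits with 2 had 559 and 368, and 420 and 361.

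The Veh and Li libraries of a genotype and replicate may come from the same culture, and their values correlated by 0.507 in the fit. Summed by genotype and replicate, 8 sums gave -1.82 for Ptgds (adjusted p = 0.0471), -1.08 for Foxc2 (0.0471) and -1.93 for Lrp2 (0.0491). With edgeR 0 of 10 genes were called in these sums, as were 0 of 15213 genes, although 7 of 10 had an unadjusted p under 0.05 against 4576 of all genes. DESeq2 called 6 of 10 lower, against 6.12% of all genes lower and 3.91% higher. With replicate 2 left out, edgeR called 1, Ptgds, against 0.0789% of all genes. At an adjusted p under 0.05 with no fold minimum, 3 of 10 were lower, against 1.35% of all genes lower and 0.92% higher.

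Li itself moved none of the 10 genes past the threshold in either genotype. Between KOLi and KOVeh, all 10 log2 fold changes were above 0, 0.05 for Foxd1 to 0.47 for Lrp2 (95% interval -0.35 to 1.28), with an adjusted p of 0.99995 for each. In edgeR and in DESeq2, 0 of 10 were called and 0 of 10 had an unadjusted p under 0.05. The tightest interval, that of Alx4, ran from -0.09 to 0.44. Between WTLi and WTVeh, the values ran from -0.11 for Slc6a13 to 0.38 for Lrp2, and 0 of 10 were called by either tool or had an unadjusted p under 0.05. Lrp2 was higher with Li in 4 of 4 pairs in each genotype, but its intervals spanned 0. The interaction ran from 0.02 for Osr1 to 0.41 for Crabp2, with 0 of 10 called and 0 at an unadjusted p under 0.05 in edgeR and in DESeq2. At that level edgeR had 225 of all 14783 genes between KOLi and KOVeh, 217 between WTLi and WTVeh and 112 in the interaction. In no gene of the 10 did all libraries of one treatment lie beyond those of the other. Of all genes tested, 0.277% lay lower and 0.183% higher in KOLi than in KOVeh throughout, and 0.298% lower and 0.244% higher in WTLi than in WTVeh. These comparisons share their KOVeh and WTVeh libraries with the comparison of genotypes in Veh, so that low KOVeh values enter both.

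Replicates accounted for more of the spread than genotype did for 3 of the 10 genes, Slc6a13, Crabp2 and Lrp2. Of the sum of squares of log2 CPM, replicates took 87.0% and genotype 1.005% for Slc6a13, 66.9% and 21.6% for Crabp2, 47.0% and 40.2% for Lrp2, and 45.5% and 47.7% for Ptgds. Genotype took 71.2% for Osr1 and 69.4% for Foxc2, where replicates took 9.85% and 10.3%. Treatment took at most 9.18%, for Alx4. Geometric means per replicate were lowest in replicate 4 for Ptgds, Slc6a13, Crabp2 and Aldh1a2, 4.32-fold, 2.92-fold, 5.95-fold and 1.499-fold under the highest replicate. Lrp2, Foxd1, Foxc2 and Alx4 were highest in replicate 4, Lrp2 by 6.80-fold over replicate 1. These are descriptions, and replicate 4 is also sequencing batch 2.

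**Figure D4:**
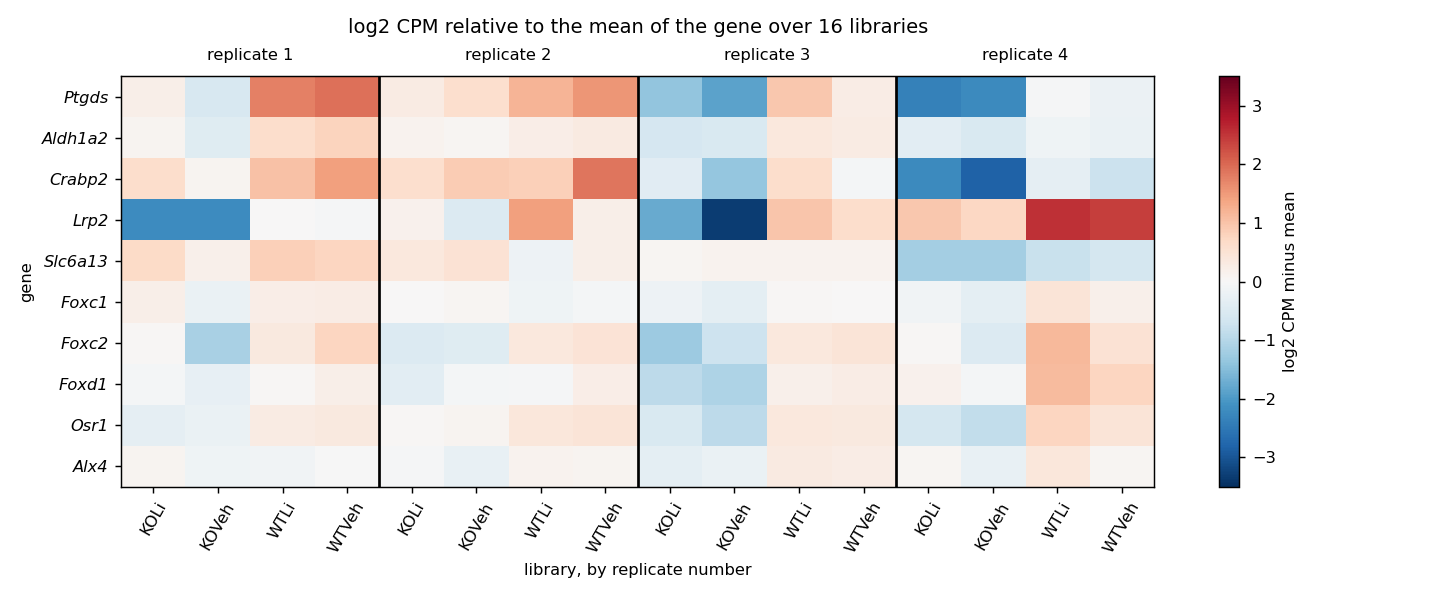
Log2 CPM of each gene minus its mean over the 16 libraries (colour), genes down and libraries across, grouped by replicate with KOLi, KOVeh, WTLi and WTVeh in each. Ptgds and Crabp2 are low and Lrp2 high in replicate 4, and KO columns are lower than WT columns within most blocks.

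Of 31 retinoid genes, 23 were tested, and 1 was called lower and 0 higher between KOVeh and WTVeh, with a median of -0.27. This count is near the 3.42% of all genes called lower, and DESeq2 called 4 of 23, against 7.54% of all genes. The called gene was Aldh1a1, a further retinaldehyde dehydrogenase, at 20.5 ± 8.24 CPM in KOVeh and 34.8 ± 10.7 CPM in WTVeh (SD, n = 4), with a log2 fold change of -0.79 (adjusted p = 0.00830). Aldh1a1 kept its call in 0 of the 8 fits without a library. Rarg, a retinoic acid receptor, had -0.67 (adjusted p = 0.0110), Dhrs4, a retinal reductase, -0.43 (0.0142), and Crabp1, the sister of Crabp2, -1.84 (0.0222), which rested on at most 75 reads. Under Li, edgeR called 0 of 23 in either direction, against 3.6% of all genes lower and 2.76% higher. Aldh1a1 had -0.69 there (adjusted p = 0.0146). At an unadjusted p under 0.05 were 5 of 23 under Li, against 5405 of all 14783 genes. DESeq2 called 3 lower, against 8.11% of all genes. The 4 genes with the smallest p in Veh are named here.

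Further meningeal fibroblast genes were counted as well. This list, like the retinoid list and the lists below, was chosen with earlier results of these data known. Setting the counts of these lists against all genes is therefore a description and tests nothing. Between KOVeh and WTVeh, 9 of 40 were called lower and 0 higher, with a median of -0.63, and under Li 8 of 40 and 0. Of all genes, 3.42% were called lower and 2.08% higher in Veh, and 3.6% and 2.76% under Li. DESeq2 called 17 lower and 0 higher in Veh, and 15 and 1 under Li. Its shares of all genes were 7.54% and 5.25% in Veh, and 8.11% and 5.74% under Li. The 9 were Aebp1, Col1a1, Igfbp2, Col1a2 and Efemp1, with S100a6, Col5a1, Serpinf1 and Thbd, which were chosen after their values were seen. Aebp1, which binds collagen, had -1.01 (adjusted p = 0.000911), and it kept its call in 8 of 8 fits without a library. Col1a1, a fibrillar collagen chain, had -0.95 (adjusted p = 0.00232), Igfbp2, a binding protein of insulin-like growth factors, -1.25 (0.00455) and Col1a2 -0.62 (0.00470). Efemp1, called in Veh at -1.05 (adjusted p = 0.00619), had -0.86 under Li (adjusted p = 0.0141). Leaving out 1 library at a time gave 1 to 14 called genes in Veh, lowest without KOVeh replicate 3, KOVeh replicate 4 or WTVeh replicate 1 and highest without WTVeh replicate 2, and 1 to 10 under Li, lowest without WTLi replicate 3 or WTLi replicate 4. Without WTVeh replicate 1, 24 of all genes were called lower and 23 higher in Veh. Without WTLi replicate 4, those under Li were 39 and 45. Without the block by replicate and in sequencing batch 1 alone, 0 of 40 were called in both. Cldn11, Pdgfra and Gjb6 of this list are also markers of glia. Replicates 1, 3 and 4 only gave 17 of 40 lower in Veh and 14 under Li, against 7.53% and 7.51% of all genes.

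Of 24 further meningeal transcription factors, 19 were tested and edgeR called 0 in Veh (17 of 19 below 0, median -0.43, 8 at an unadjusted p under 0.05), where DESeq2 called 4 lower. Prrx2 was called lower under Li at -0.68 (adjusted p = 0.00976), although 7 of 8 fits without a library of these groups called 0 of the list. In Veh, Prrx2 had -0.66 and fell just short of the threshold (adjusted p = 0.0115). Its interaction was -0.01 and did not pass. Of 24 prostaglandin genes, 20 were tested and edgeR called 0 in Veh (median -0.21, 9 at an unadjusted p under 0.05), where DESeq2 called 2 lower. Ptgr1, a prostaglandin reductase, was called lower under Li at -0.67 (adjusted p = 0.00897) and in 0 of 8 fits without a library. In Veh, Ptgr1 had -0.62 and did not pass (adjusted p = 0.0131). Its interaction was -0.05 and did not pass. Ptgdr, a receptor for prostaglandin D, had -0.98 (adjusted p = 0.0182) in Veh. Of 6 further transporters of GABA and osmolytes, edgeR called 0 in Veh (median 0.29) and 0 under Li, with 2 at an unadjusted p under 0.05 in each, while DESeq2 called 1 higher in Veh and 2 under Li. Of 15 relatives and partners of megalin, edgeR called 0 lower (DESeq2 called 1 lower and 2 higher) and Vldlr, a lipoprotein receptor, was called higher at 0.41 (adjusted p = 0.00535). Vldlr lost that call without KOVeh replicate 1, 3 or 4 or WTVeh replicate 1 or 4. The megalin adaptor Dab2 had -0.93 (adjusted p = 0.0196) and Clu, a megalin ligand, -1.06 (adjusted p = 0.0321). Beside the counts of these lists, edgeR called 3.42% of all genes lower and 2.08% higher in Veh, and 3.6% and 2.76% under Li. At an unadjusted p under 0.05, edgeR had 5062 of all 14783 genes in Veh and 5405 under Li, both directions together. The counts of the lists at that level stand beside these and are no sign of a difference by themselves. DESeq2 called 7.54% and 5.25% in Veh, and 8.11% and 5.74% under Li. Its 2 of 20 prostaglandin genes were near the share called lower.

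**Figure D5:**
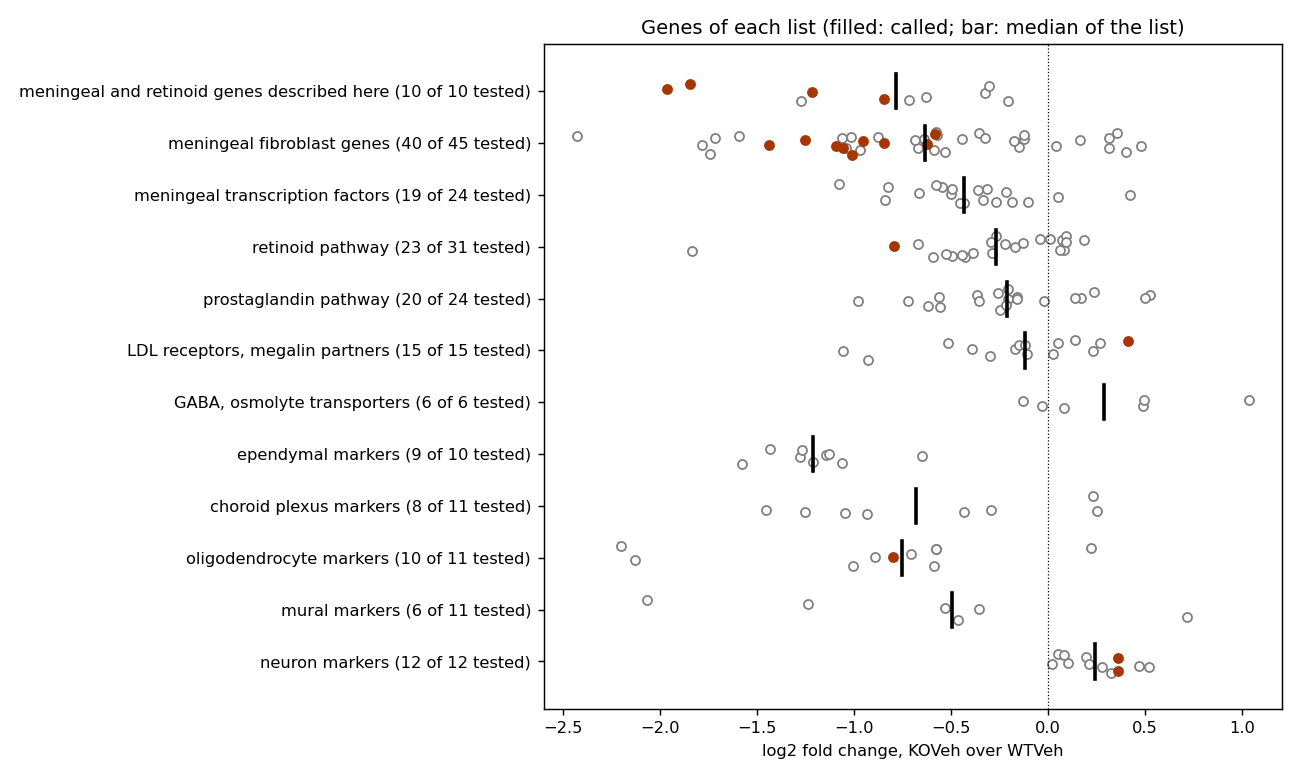
Log2 fold change between KOVeh and WTVeh (horizontal axis) for every tested gene of each list (vertical axis), with filled points for called genes and bars for medians. The 10 genes described here have a median of -0.78, the other meningeal fibroblast genes -0.63 and the ependymal markers -1.21.

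Markers of other cell types were summed in the same libraries. Their calls stand beside 3.42% of all genes called lower and 2.08% called higher between KOVeh and WTVeh. At an unadjusted p under 0.05 were 5062 of all 14783 genes, both directions together. Ependymal markers (9 of 10 tested) summed to 63.3 to 341 CPM in KOVeh and 151 to 319 CPM in WTVeh, with 9 of 9 below 0, a median log2 fold change of -1.21 and 0 called by edgeR (8 at an unadjusted p under 0.05). Choroid plexus markers (8 of 11 tested) summed to 11.4 to 66.6 CPM in KOVeh and 30.1 to 59.4 CPM in WTVeh, with 6 of 8 below 0 and a median of -0.68. Oligodendrocyte markers (10 of 11 tested) summed to 114 to 200 CPM in KOVeh and 163 to 559 CPM in WTVeh, with 9 of 10 below 0, a median of -0.75 and 1 called lower, Cnp, chosen after its value was seen. Neuron markers had a median of 0.24, with 0 of 12 below 0 and 2 called higher, Map2 and Snap25, chosen after their values were seen. Neural progenitor markers (8 of 8 tested) summed to 627 to 1924 CPM in KOVeh and 1223 to 3028 CPM in WTVeh, with 7 of 8 below 0, a median of -0.75 and 2 called lower, Nes and Vim, chosen after their values were seen. Medians were also below 0 for markers of oligodendrocyte precursors (-0.66, 7 of 7 below 0, 1 called lower), microglia (-0.58, 11 of 11, 0 called), mural cells (-0.50, 5 of 6, 0 called), endothelial cells (-0.36, 4 of 7, 0 called) and astrocytes (-0.31, 9 of 11, 0 called lower and 1 higher). Cspg4 of the precursors was the lower gene and Slc1a2 of the astrocytes the higher one, both chosen after their values were seen. The summed levels of these 5 lists overlapped between KOVeh and WTVeh. The part of these cell types in the values of the 10 genes was not tested.

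The 8 genes most like the mean pattern of the 10 genes over 16 libraries, after removal of the replicate effect, were Smoc1, Msx1, Aldh2, Fzd2, Hspb1, Ginm1, Nt5dc2 and Gstt1. Likeness is the root mean square difference of standardised log2 CPM, 0.19 for Smoc1 to 0.27 for Gstt1, against 0.26 for Ptgds, 0.33 for Osr1 and 0.94 for Slc6a13, and a median of 1.41 over all genes. The mean pattern contains the 10 genes themselves, so their values do not compare like with like against those of the 8. Of the 8, 3 stayed among the closest 8 in replicates 1, 3 and 4 only, and 1 with the replicate effect kept.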

How the data were processed

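The authors deposited counts, raw whole numbers of reads per gene, for 54532 genes in 16 libraries. By the submitters' processing notes they used HISAT2 2.0.5, featureCounts 1.5.0-p3 and GRCm38.p6. Genes were matched by identifier, since 14 names differed between the tables, and 0 lines lacked a gene. Of 33134 genes of the 10 biotypes the study kept, 14783 passed filterByExpr (minimum count 15, minimum proportion 0.25), or 15213 for summed counts. In R 4.3.3, edgeR 4.0.16 fitted group and replicate by the quasi-likelihood test with TMM scaling. The study fitted group and experimental batch with limma, and the replicate numbers are only taken as those batches. It also kept only genes with an Entrez identifier, a filter that was not applied here. The members and lists were chosen with earlier results of these data known, in part from the topics of the paper. The named genes of a list are the 4 with the smallest p in KOVeh against WTVeh and those whose call was gained or lost under Li. The fits were also run on simulated counts, drawn without a replicate effect and without a shared culture. That run therefore cannot vouch for the fits where replicates and cultures matter.

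Replicate numbers were treated as pairing the libraries, which is an assumption. After subtraction of group means, libraries sharing a replicate number correlated by 0.224 to 0.557 for KOVeh and WTVeh. For KOLi and WTLi the range was 0.161 to 0.500. Libraries of different replicate numbers were not compared in this way, so these correlations cannot decide whether the numbers pair the libraries. They also include any shift of replicate 4, which alone had its own sequencing batch. CPM were computed from the deposited counts with TMM factors. Nothing states that libraries of a group came from separate animals, so p-values measure the spread between libraries. Alternatives were DESeq2 1.42.0, limma-voom of limma 3.58.1, other scalings, filters and thresholds, and libraries left out. Replicates 1, 3 and 4 only and the culture as a random effect were planned with earlier results known; the likeness alternatives were added after seeing the data. Promoters are from RefSeq.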

Additional observations from a re-analysis of the deposited data

Results flagged for a closer look

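In 40 groups of 4 libraries (10 genes in 4 groups), 2 held a library that stood apart from the other 3 on the log2 scale, about what chance gives at 5% of groups. Foxc2 held 7.84 CPM in WTLi replicate 4, far above the others of WTLi, and Foxd1 held 27.3 CPM in WTVeh replicate 4, above the others of WTVeh. Both are replicate 4, the only replicate of sequencing batch 2.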

How the results depend on the processing

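Of the 10 genes, 4 were called between KOVeh and WTVeh, 3 between KOLi and WTLi and 0 in the summed counts. DESeq2 gave 7 in Veh, 4 under Li and 6 in the sums, and an adjusted p under 0.05 with no fold minimum 7, 5 and 3. Limma-voom, the tool of the study, gave 3 in Veh, 2 under Li and 0 in the sums. With culture as a random effect it gave 2 in Veh and 2 under Li. Without the replicate block, with the compared groups alone and with sequencing batch 1 alone, both comparisons gave 0. Replicates 1, 3 and 4 only gave 1 in the sums. Leaving out 1 library gave 0 to 4 in Veh and 0 to 2 in Li, and leaving out 1 replicate 0 to 1 in the sums. The cause of these changes was not tested. Over all genes, lower and higher calls in Veh and then Li were 506 and 307, and 532 and 408. Limma-voom gave 446 and 321, and 433 and 386, and 0 in the sums. DESeq2 gave 1115 and 776, and 1199 and 848, the culture as a random effect 318 and 195, and 375 and 289, replicates 1, 3 and 4 only 1119 and 528, and 1117 and 641, batch 1 alone 6 and 9, and 3 and 4, an adjusted p under 0.05 with no fold minimum 1696 and 1177, and 1861 and 1361, and no replicate block 0. In the sums, edgeR called 0, DESeq2 931 and 595, that threshold 205 and 140, and replicates 1, 3 and 4 only 12 and 0. Leaving out 1 library gave from 24 lower and 23 higher to 881 and 462 in Veh, and from 39 and 45 to 559 and 368 under Li. Of 200 fold changes under alternatives between KOVeh and WTVeh, 0 reversed, 36 lost and 8 gained a call. Between KOLi and WTLi 5 of 200 reversed, all of Slc6a13.

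Reversals were of small values. Slc6a13 between KOLi and WTLi had 0.0094 with no replicate block and 0.11 in sequencing batch 1 alone, and -0.18 to 0.0753 with 1 library left out. In the sums Slc6a13 had 0.0018 in sequencing batch 1 alone and -0.29 to 0.0018 with 1 replicate left out. Between KOLi and KOVeh, Foxd1 had -0.0037 in sequencing batch 1 alone, and leaving out 1 library gave -0.0093 to 0.56 for Ptgds, -0.0753 to 0.23 for Foxd1, -0.0457 to 0.25 for Osr1 and -0.0741 to 0.25 for Slc6a13. Between WTLi and WTVeh with no replicate block, Ptgds had -0.0400 and Foxd1 0.0189. In sequencing batch 1 alone, Foxc1 had -0.0250, Foxc2 -0.19 and Osr1 -0.0358. In replicates 1, 3 and 4 only, Aldh1a2 had 0.0044, Crabp2 0.22 and Foxd1 0.0549. Foxd1 had 0.0045 by limma-voom and 0.0091 with culture as a random effect. Leaving out 1 library gave -0.12 to 0.37 for Ptgds, -0.13 to 0.10 for Aldh1a2, -0.35 to 0.23 for Crabp2, -0.0602 to 0.17 for Foxc1, -0.13 to 0.13 for Foxc2, -0.17 to 0.12 for Foxd1, -0.11 to 0.19 for Osr1 and -0.20 to 0.050008 for Slc6a13. Slc6a6, a taurine transporter, had -0.0021 between KOVeh and WTVeh in replicates 1, 3 and 4 only. Low counts of Crabp2 and Foxc2 and the 4 libraries per group limit the precision.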
